A study of Rattus norvegicus with 23 samples.

Results

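In rat neural stem cells placed in differentiation medium, 110 genes rose by 12 h and then stayed near their 12 h level to 36 h, out of 32883 genes in the deposited table. They were chosen by measured values. Levels in CPM (a gene's reads scaled to a library of 1000000 reads) were averaged over the libraries of each substrate and time, the soft and stiff means were averaged at each time, and 1 CPM was added before taking log2. A member gained at least 1.5 on this scale from 0 to 12 h, did not lose 1 or more from 12 to 24 h, and differed by less than 1 in either direction between 12 and 36 h. Because those time steps chose the genes, the values of the rise and of the plateau below are a description and carry no test. Tests are given only for stiff against soft substrate, and for a substrate whose own values were not used to choose the genes.

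The cells were wild type (WT) neural stem cells from the hippocampus of adult female rats, on a soft or a stiff substrate, collected at 0, 12, 24 and 36 h. All groups, 0 h included, carry the same medium in their labels: DMEM-F12 with N2, retinoic acid at 1 uM and 1% FBS. The 23 libraries form 8 groups of 3 rounds each, except that soft substrate at 12 h has 2 (rounds 1 and 3). The series title names eEF1A1, a translation elongation factor, and its design asks which genes depend on stiffness. Whether the rounds were separate cultures or animals is not in the labels. The p-values therefore speak of spread between libraries, and that spread may be technical only. Neither the stiffness of each substrate nor its material is in the labels.

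Hippocampal neural stem cells divide, renew themselves and can give rise to neurons and glia. Retinoic acid enters the nucleus and switches on genes through its receptors, and serum supplies growth factors that push many neural stem cells towards glia. Cells also sense how stiff their support is, through adhesions and the contractile cytoskeleton, and soft and stiff supports are known to bias which cell type these stem cells become. A gene that goes up within hours and stays up differs from an immediate response gene, which peaks and returns, and from a gene that builds up slowly as cells mature.

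The files give Ensembl rat gene identifiers and no symbols, and none of the 32883 identifiers could be paired with a gene name. Functions, cell type markers, proteins and promoters of the 110 genes were therefore not examined, and the label neural stem cell was not checked against markers. Genes are described by their values, and 4 are given by identifier. Library totals ran from 2462360 to 6811157 reads. At 12 h the soft libraries held 5428086 and 6519349 reads and the stiff ones 2462360 to 4803755, so depth differed between the substrates at that time.

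The 110 genes together went from a small to a larger part of each library within 12 h and kept it. Their summed level at 0 h was 1779 ± 75.8 CPM on soft (SD, n = 3) and 1745 ± 75.2 CPM on stiff (SD, n = 3). By 12 h it was 8827 ± 408 CPM on soft (SD, n = 2) and 8487 ± 267 CPM on stiff (SD, n = 3). This was 4.96 times the 0 h sum on soft and 4.86 times on stiff. At 24 h the sums were 10820 ± 648 CPM on soft and 10872 ± 374 CPM on stiff (SD, n = 3 each), and those groups overlapped. At 36 h the 2 substrates parted: soft had 10039 ± 446 CPM, with libraries from 9557 to 10437, and stiff had 11322 ± 240 CPM, with libraries from 11105 to 11580 (SD, n = 3 each). All 3 stiff libraries lay above all 3 soft ones at 36 h, by a factor of 1.13 in the means. As a share of all reads, the genes took 0.167 to 0.187% of a library at 0 h and 0.956 to 1.16% at 36 h. These are bulk libraries, so more cells that express a gene and more of its RNA per cell cannot be told apart.

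**Figure D1:**
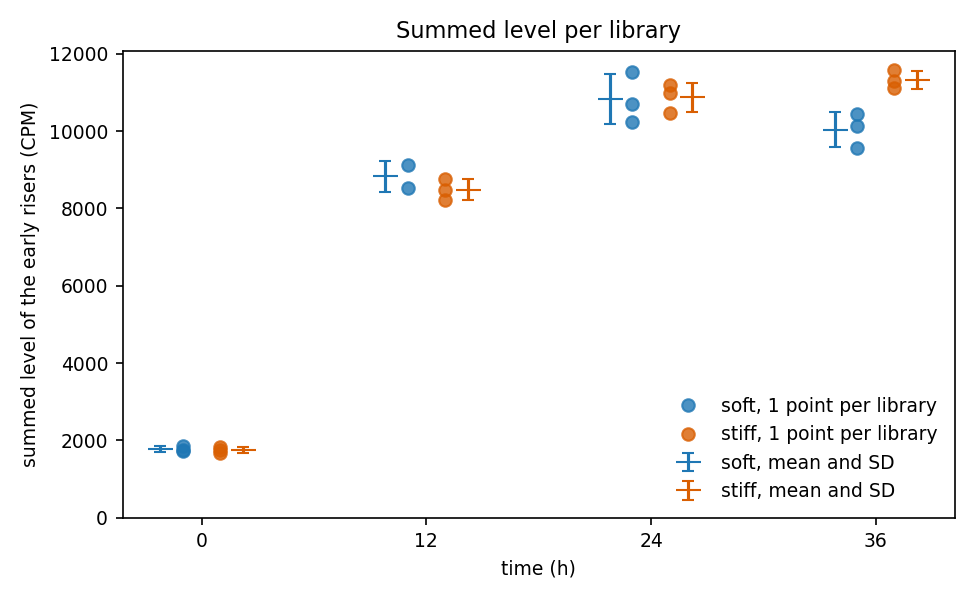
Summed level of the 110 genes in CPM (y axis, linear, from 0) against time in hours (x axis), with 1 point per library on soft (blue) and stiff (orange) and the mean and SD beside them, offset sideways for clarity. The sums go from about 1779 CPM at 0 h to 8827 CPM at 12 h on soft, and at 36 h the stiff libraries (11105 to 11580 CPM) sit above the soft ones (9557 to 10437 CPM).

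Single genes rose by very different amounts. The gain from 0 to 12 h had a median of 2.12 on the log2(CPM + 1) scale, which is 4.35-fold, and ran from 1.51 to 6.03, or 2.85-fold to 65.3-fold. Of the 110 genes, 64 rose more than 4-fold, 21 more than 8-fold and 6 more than 16-fold, all as folds of CPM + 1, which understate the change of genes with low counts. Adding 1 CPM matters most for the 28 genes whose mean was under 1 CPM at 0 h. Those 28 reached a median of 5.39 CPM at 12 h. The 40 genes that started at 1 to 10 CPM reached a median of 18.4 CPM, the 32 that started at 10 to 50 CPM reached 101 CPM, and the 10 that started at 50 CPM or more reached 337 CPM. The median gain was 2.23, 2.12, 2.08 and 1.81 in these 4 classes of starting level, so genes silent or near silent at the start and genes already abundant are both in the set.

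The genes span a wide range of abundance after the rise. At 12 h the mean over both substrates ran from 2.27 to 653 CPM with a median of 33.6 CPM; 27 genes were under 10 CPM and 28 were at 100 CPM or more. A few genes held much of the sum: the 10 most abundant at 12 h made up 43.2% of it. One gene had no read in any of the 6 libraries at 0 h, which allows a level of up to 0.0898 CPM (3 counts over the group, counting error only). It had 1.47 to 2.71 CPM in the 12 h libraries, with a mean of 2.27 CPM, which is 25.3 times that limit. It is 1 of 12 genes with fewer than 10 reads summed over all 0 h libraries. Between 99 and 103 of the 110 genes had at least 1 read in a given 0 h library, and all 110 had one in every 12 h library.

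After 12 h most genes moved little. The change from 12 to 24 h had a median of 0.34 on the log2(CPM + 1) scale, from -0.48 to 1.41; 73 genes stayed within 0.5 of their 12 h level, 37 gained more than 0.5 and 0 lost more than 0.5. From 12 to 36 h the median was 0.23, and 59 genes stayed within 0.5, 39 gained more and 12 lost more. A fall after 24 h was small in the middle of the set, with a median change from 24 to 36 h of -0.06, and ran from -1.31 to 0.54. The 12 h level was passed at both later times by 75 of the 110 genes, and 17 lay below it at both. The highest of the 4 times was 24 h for 51 genes, 36 h for 42 and 12 h for 17. On soft the counts were 61, 28 and 21, and on stiff 42, 54 and 14. More genes thus had their highest mean at 24 h on soft and at 36 h on stiff.

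**Figure D2:**
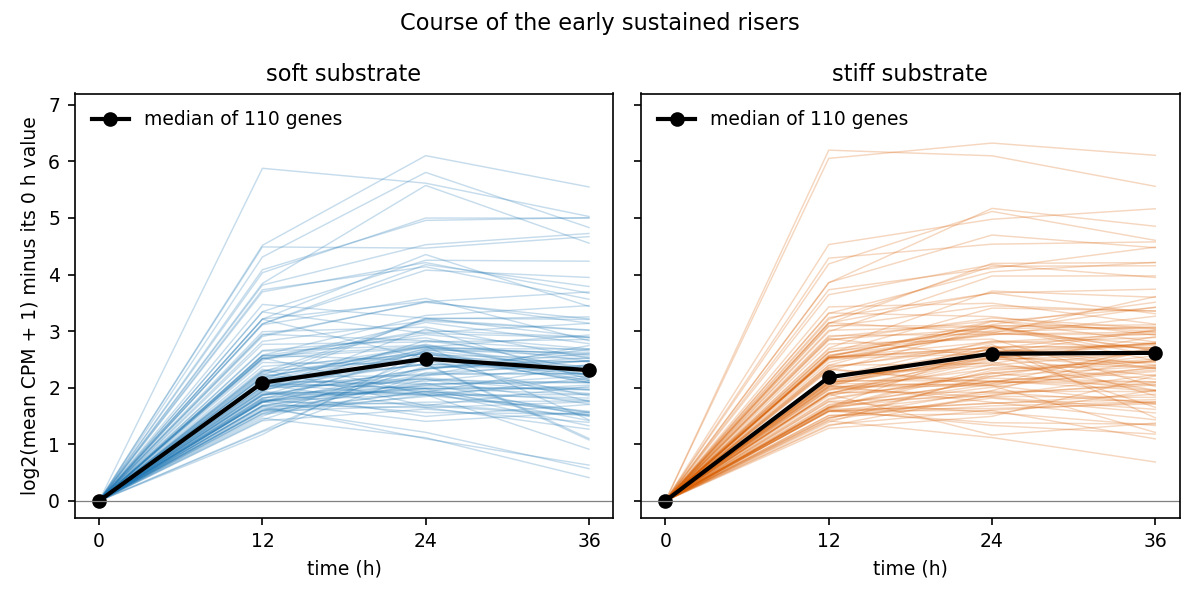
Change of each gene's mean log2(CPM + 1) from its own 0 h value (y axis) against time in hours (x axis), on soft (left) and stiff (right), with 1 thin line per gene and the median of the 110 genes in black. The median on soft goes from 2.09 at 12 h to 2.51 at 24 h and 2.31 at 36 h, and on stiff from 2.18 to 2.60 and 2.62.

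The limits of the rule cut through a continuous range. The 3 smallest gains inside the rule were 1.51, 1.52 and 1.54, and the 3 nearest outside it, among genes that met the other limits, were 1.49, 1.48 and 1.47. At the upper limit on the change from 12 to 36 h, the nearest members had 0.995, 0.994 and 0.943 and the nearest non-members 1.02, 1.04 and 1.04. At the lower limit the nearest members had -0.90, -0.89 and -0.86 and the nearest non-members -1.07, -1.07 and -1.09. In all, 169 genes gained 1.5 or more by 12 h. Besides the 110, 50 of these gained 1 or more again by 36 h and 9 lost 1 or more by 36 h.

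In the libraries that chose the genes, each round on each substrate showed the rise in every gene. Within a round, the 12 h library exceeded the 0 h library of the same substrate for 110 of 110 genes in all 5 pairs (rounds 1 and 3 on soft, rounds 1 to 3 on stiff). A gain of 1.5 or more was found in 99 and 101 genes on soft and in 96, 101 and 96 on stiff. The median gain was 2.06 and 2.13 on soft and 2.26, 2.22 and 2.23 on stiff. Over all tested genes the median lay between -0.06 and 0 in these pairs. In 109 of the 110 genes every 12 h library lay above every 0 h library, which was so for 9.24% of the 11857 tested genes. The rule used the 0 and 12 h means of these same libraries. All counts and medians of the 110 in this paragraph are therefore a description only, and no replication of the rise.

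The size of the gain was alike on both substrates for most genes. Its median was 2.09 on soft and 2.18 on stiff, and 54 of the 110 genes gained more on stiff. For 86 genes the 2 gains differed by less than 0.5, and for 3 genes by more than 1. Across the 110 genes, Pearson's r between the gains was 0.873 and Spearman's rho was 0.767. These describe genes that share libraries, depth and the rule, and genes are not independent replicates.

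**Figure D3:**
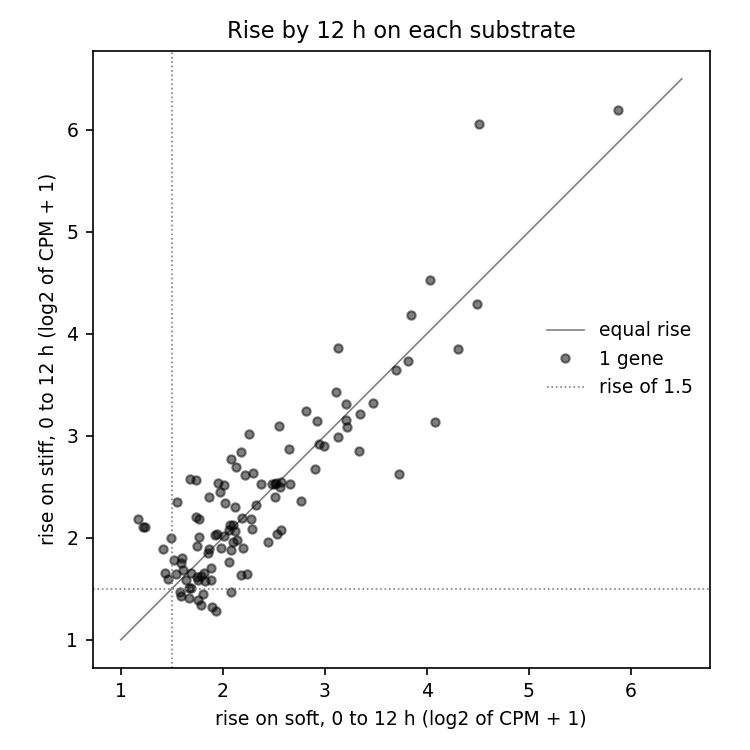
Gain from 0 to 12 h on soft (x axis) against the gain on stiff (y axis), both on the log2(CPM + 1) scale, with 1 point per gene, the line of equal gain, and dotted lines at 1.5. Most points lie along the line (86 of 110 within 0.5 of it), and 1 point near the top lies well above it.

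Choosing genes on 1 substrate and testing them on the other compares libraries that took no part in the choice. The filter, the scaling and the estimate of spread still came from 1 fit of both substrates. Applied to the soft libraries alone, the rule gave 112 genes, of which 96 are among the 110. On stiff, 108 of these 112 passed edgeR's quasi-likelihood test for a higher level at 12 h than at 0 h (Benjamini-Hochberg adjusted p under 0.05 over all 11857 genes), or 96.4%, against 11.8% of all tested genes. All 112 had a higher fitted level at 12 h on stiff, with a median log2 fold change of 2.58 (0.22 to 7.37). The 4 that did not pass had adjusted p of 0.162 to 0.706 and no group mean above 14.8 CPM.

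The reverse choice gave a similar picture. The stiff libraries alone gave 117 genes, 98 of them among the 110, and on soft 115 of the 117 passed the same test, or 98.3%, against 15.2% of all tested genes. The median log2 fold change on soft was 2.50 (1.01 to 7.17). The 2 that did not pass had adjusted p of 0.239 and 0.449 and no group mean above 3.66 CPM. The whole rule, plateau included, was met on both substrates separately by 85 of the 110 genes and on neither alone by 1. Soft and stiff libraries share round numbers, and the labels do not say whether the 2 substrates of a round started from the same cells.

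A round left out of the choice gave the same direction. With rounds 1 and 3 alone the rule gave 109 genes, 105 of them among the 110. In round 2 on stiff, 108 of the 109 rose from 0 to 12 h, 97 of them by 1.5 or more, with a median of 2.16 (-0.28 to 6.47). Of all tested genes, 2.24% gained 1.5 or more there. This is 1 library at each time, with no replicate check.

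Stiff and soft substrates were next compared at each time, with all 110 genes in the fit. At 0 h, 0 of the 110 differed by edgeR's test at an adjusted p under 0.05, as did 0% of all tested genes. Of the 110, 10 reached an unadjusted p below 0.05 (9.09%, 7 of them lower on stiff), against 3.63% of all tested genes, and the count by DESeq2 was 0. The median log2 fold change, stiff minus soft, was -0.02. Single values at 0 h, where many of these genes had few reads, spread widely, the lowest being -2.63.

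At 12 h, 4 of the 110 genes differed between substrates, 3 higher and 1 lower on stiff. That is 3.64% of the genes, against 6.6% of all tested genes in either direction and 5.36% for higher on stiff. In this fit the members were not called more often than genes in general; without a filter on low counts 8 were called, 4 in each direction, or 7.27% against 5.15%. Their median log2 fold change was -0.08, against -0.03 for all tested genes. Every stiff library lay above every soft one for 16 of the 110 genes (14.5%), against 19.7% of all tested genes, and below for 18 (16.4%), against 15.1%. The depth gap at this time lies in the same direction for every library; with all libraries thinned to the smallest total, 4 of 109 genes were called (3.67%, against 5.71% of all genes tested at that depth), all higher on stiff.

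At 24 h the substrates were closest by the median size of the difference per gene. Of the 110 genes 0 passed edgeR's test, as did 0% of all tested genes, and the count by DESeq2 was 0. An unadjusted p below 0.05 was reached by 2 genes (1.82%), against 3.02% of all tested genes. The median log2 fold change was 0.01. Its size without sign had a median of 0.10, as for all tested genes. Non-overlap was not least at this time. Every stiff library lay below every soft one for 9 genes (8.18%), against 4.17% of all tested genes. The stiff libraries all lay above for 3 genes (2.73%), against 3.8%. At 0 h these counts were 5 below (4.55%, against 4.17% of all tested genes) and 2 above (1.82%, against 3.89%). An adjusted p above the threshold does not show that the levels were equal.

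At 36 h the 110 genes lay higher on stiff as a set, by a small amount per gene. Of the 110, 85 had a higher fitted level on stiff (77.3%), against 48.3% of all tested genes. The median log2 fold change was 0.20, or 1.15-fold, against -0.01 for all tested genes. Few single genes passed: 1 of 110, higher on stiff, or 0.909%, against 0.0675% of all tested genes. That 1 call was lost whenever any of the 6 libraries at 36 h was left out. Other settings gave more calls, all higher on stiff: DESeq2 called 2 (1.82%, against 0.236% of all tested genes) and the fit without a filter on low counts 10 (9.09%, against 0.53%). At an unadjusted p under 0.05, 28 genes were higher on stiff (25.5%), against 3.22% of all tested genes. In the other direction 1 of the 110 was lower, against 453 of the 11857 tested genes. The 28 had log2 fold changes of 0.18 to 0.93 with a median of 0.41, and adjusted p of 0.0371 to 0.709.

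The higher level on stiff at 36 h was seen in each round. The stiff library exceeded the soft library of the same round for 71, 73 and 82 of the 110 genes in rounds 1, 2 and 3, against 50.8%, 46.0% and 45.5% of all tested genes. The stiff library was the deeper one in rounds 1 and 3, and the soft library in round 2. The median differences were 0.11, 0.13 and 0.24 on the log2(CPM + 1) scale. All 3 stiff libraries lay above all 3 soft ones for 26 genes (23.6%) and below for 1, against 5.31% of all tested genes above and 7.38% below. Leaving out each 36 h library in turn kept the median log2 fold change between 0.15 and 0.22. Genes that rise together are not independent, so no p is given for the set.

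**Figure D4:**
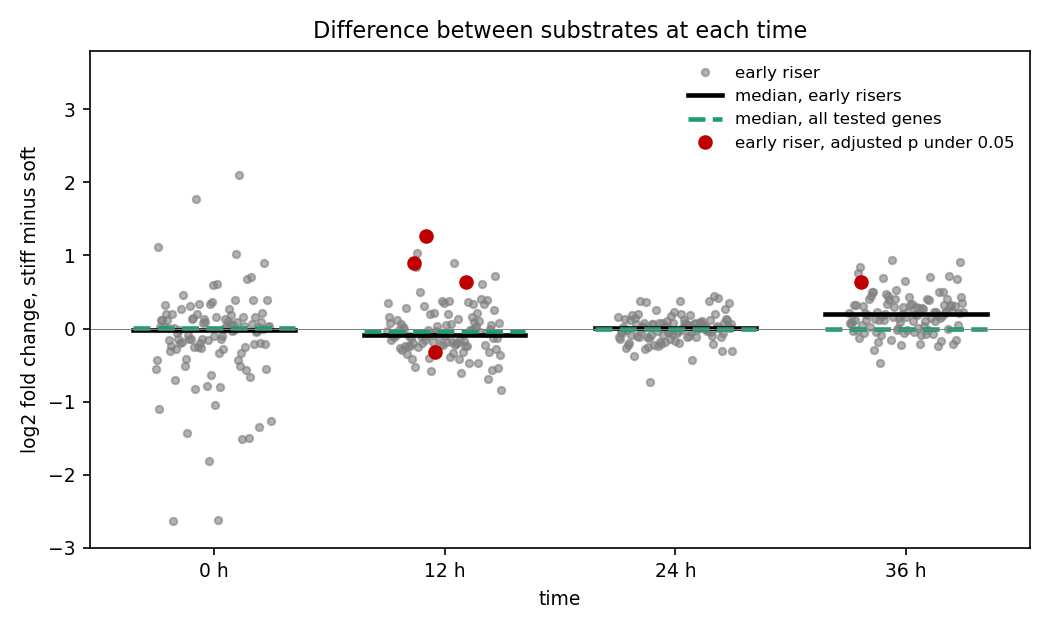
Log2 fold change of stiff minus soft (y axis) at each time (x axis), with 1 point per gene of the 110, spread sideways for clarity; red points have an adjusted p under 0.05, black lines are medians of the 110 genes and dashed green lines medians of all tested genes. The black line is near 0 at 0, 12 and 24 h and at 0.20 at 36 h, where the green line is at -0.01; 4 points are red at 12 h and 1 at 36 h.

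The gene called at 36 h ranked 37th by its gain to 12 h and held 88.5 CPM on soft and 136 CPM on stiff. Its soft libraries ran from 88.2 to 88.9 CPM and its stiff libraries from 131.3 to 142.5 CPM, so the groups did not overlap. The log2 fold change was 0.63 (adjusted p = 0.0371, edgeR). At 12 h the same gene had 78.3 ± 14.3 CPM on soft (SD, n = 2) and 66.3 ± 9.39 CPM on stiff (SD, n = 3), which overlapped in SD.

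For the middle of the set, the step after 24 h was a small fall on soft and near 0 on stiff. From 24 to 36 h the median change was -0.16 on soft and 0.01 on stiff, on the log2(CPM + 1) scale. In the fit, the step was larger on stiff for 87 of the 110 genes (79.1%), against 48.8% of all tested genes, with a median difference of 0.19. For this contrast, added after the values at 36 h were seen, 0 genes passed at an adjusted p under 0.05, as did 0% of all tested genes. At an unadjusted p under 0.05, 15 genes had a larger step on stiff (13.6%), against 1.65% of all tested genes. A smaller step was found for 0 of the 110, against 243 of the 11857 tested genes.

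The first rise differed between substrates in few of the 110 genes by edgeR's test, too few to set their share apart from that of all tested genes. The difference between the stiff and soft gains from 0 to 12 h passed for 1 of the 110 genes (0.909%), against 1.87% of all tested genes. Its median over the 110 was -0.06, and its size without sign had a median of 0.29, against 0.23 for all tested genes. An unadjusted p under 0.05 (edgeR) was reached by 13 of the 110 (11.8%), against 11.6% of all tested genes. The difference between the steps from 12 to 24 h passed for 3 genes (2.73%), all with a smaller step on stiff, against 4.44% of all tested genes. A test of whether the stiff minus soft difference varied over the 4 times passed for 4 genes (3.64%), against 3.31% of all tested genes. This count moved with the settings, to 8 with DESeq2 (7.27%, against 4.78%) and to 14 without a filter on low counts (12.7%, against 3.68%). Leaving out 1 library other than a soft 12 h one gave 2 to 5 (1.82 to 4.55%, against 2.26 to 3.66%). The 3 genes with a smaller 12 to 24 h step on stiff are the same 3 that were higher on stiff at 12 h. Both contrasts use the 12 h libraries.

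The gene with the largest gain, ENSRNOG00000001128, went from about 1 CPM to over 100 CPM on both substrates. On soft it had 0.78, 1.12 and 1.69 CPM at 0 h and 133 and 123 CPM at 12 h. On stiff it had 1.29, 0.62 and 0.38 CPM at 0 h and 134, 143 and 109 CPM at 12 h. Each 12 h library was far above each 0 h library, and the substrates overlapped at both times. At 24 h it had 88.7, 136 and 95.7 CPM on soft and 94.7, 156 and 109 CPM on stiff. By 36 h the level had come down to 65.2, 85.7 and 61.0 CPM on soft and 58.8, 105 and 82.9 CPM on stiff, still well above 0 h. The stiff minus soft difference at 12 h did not pass edgeR's test, with a log2 fold change of -0.04 (adjusted p = 0.944).

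The gene with the second largest gain, ENSRNOG00000016750, was higher on stiff at 12 h and overlapped between substrates at 24 h. It was near 0 at the start, with 0.20, 0.64 and 0.72 CPM on soft and 0.16, 0.46 and 0.19 CPM on stiff. At 12 h it had 31.9 and 35.7 CPM on soft against 80.8, 81.6 and 87.9 CPM on stiff, so that the groups were far apart. The difference was 2.40-fold, a log2 fold change of 1.26 (SE 0.148, adjusted p = 4.46e-07, edgeR). At 24 h soft had caught up, with 123, 100 and 87.0 CPM against 99.9, 97.2 and 105 CPM on stiff. The step from 12 to 24 h was smaller on stiff by 1.29 on the log2 scale, a difference of -1.29 (SE 0.187, adjusted p = 2.67e-05). At 36 h it had 63.2, 63.4 and 83.9 CPM on soft and 77.4, 91.1 and 91.6 CPM on stiff, and the groups overlapped. The soft means were 33.8 CPM at 12 h, 103 CPM at 24 h and 70.2 CPM at 36 h, so soft alone showed no plateau from 12 h. Its gain from 0 to 12 h was larger on stiff by 2.09 but did not pass (adjusted p = 0.228), with a 0 h level of under 1 CPM in each library.

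**Figure D5:**
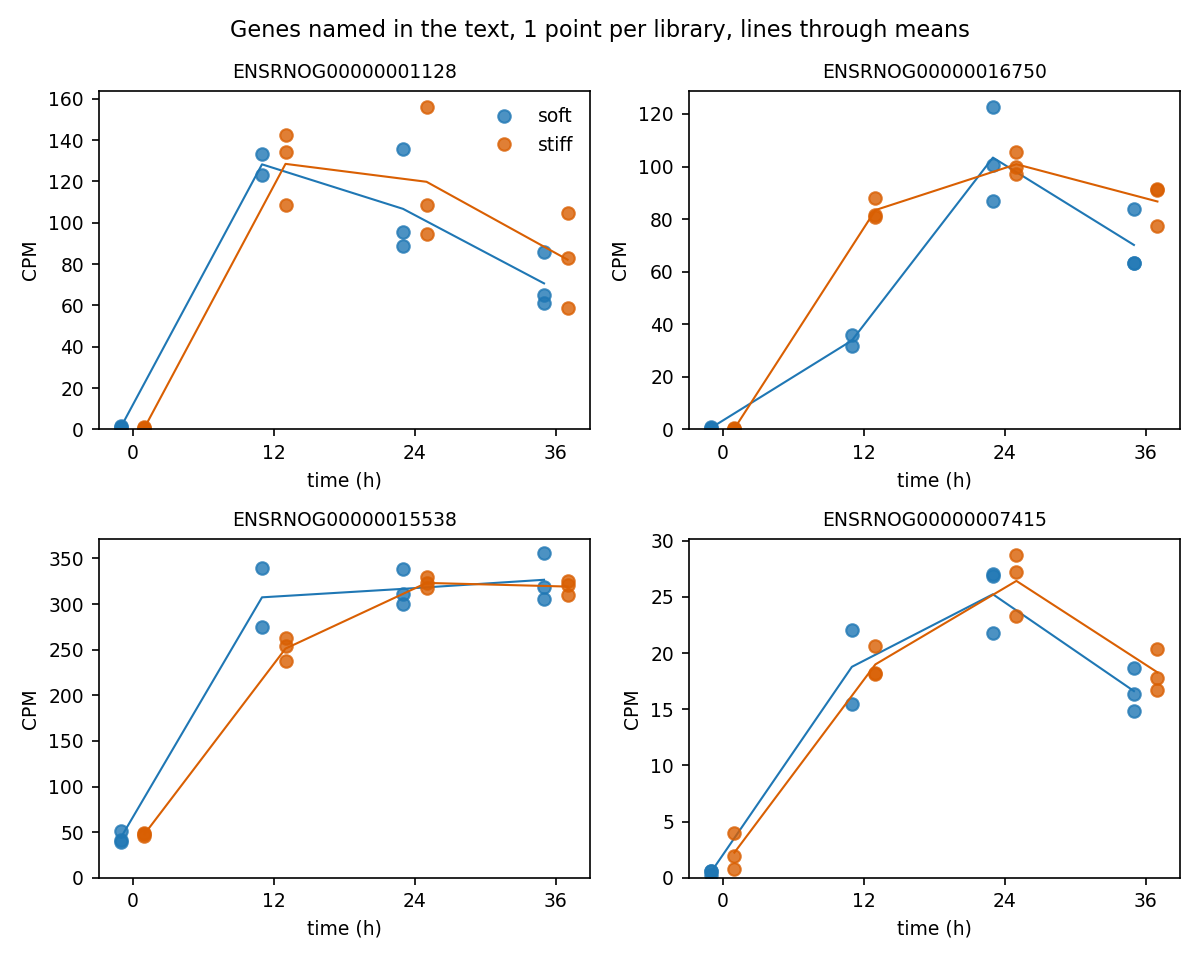
CPM (y axis, linear, from 0, with its own range in each panel) against time in hours (x axis) for the 4 genes given by identifier, with 1 point per library on soft (blue) and stiff (orange), offset sideways by 1 h, and lines through the group means. At 12 h the stiff points of ENSRNOG00000016750 (80.8 to 87.9 CPM) lie above its soft points (31.9 and 35.7 CPM), and by 24 h the points of both substrates overlap.

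The other 2 genes higher on stiff at 12 h were not called at 24 h or 36 h, and their courses differed. The gene ranked sixth by its gain had 92.1 ± 18.8 CPM on soft (SD, n = 2) and 149 ± 22.01 CPM on stiff (SD, n = 3) at 12 h, a log2 fold change of 0.64 (adjusted p = 0.00513, edgeR). By 24 h it stood at 308 ± 71.8 CPM on soft and 283 ± 28.7 CPM on stiff (SD, n = 3 each). At 36 h its soft libraries ran from 148 to 157 CPM and its stiff libraries from 187 to 209 CPM, with no overlap, a log2 fold change of 0.41 that did not pass (adjusted p = 0.319). The gene ranked 79th had 26.0 ± 1.61 CPM on soft and 49.9 ± 4.88 CPM on stiff at 12 h, a log2 fold change of 0.90 (adjusted p = 0.00257, edgeR). At 24 h it had 54.1 ± 4.76 CPM on soft and 44.4 ± 3.98 CPM on stiff (SD, n = 3 each). Its stiff libraries all lay below its soft ones at 24 h, with a log2 fold change of -0.28 that did not pass (adjusted p = 1.00). At 36 h its groups overlapped, with a log2 fold change of -0.05 (adjusted p = 0.981).

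The member called lower on stiff at 12 h was ENSRNOG00000015538, an abundant gene from the start. It had 41.9, 39.8 and 51.4 CPM on soft and 49.3, 48.3 and 46.3 CPM on stiff at 0 h. At 12 h it reached 275 and 340 CPM on soft and 254, 238 and 262 CPM on stiff, and the groups did not overlap. The log2 fold change was -0.33 (SE 0.0956, adjusted p = 0.0319, edgeR). This call was lost with the libraries thinned to 1 depth (log2 fold change -0.33, adjusted p = 0.0542) and without stiff 12 h round 1 (-0.32, adjusted p = 0.0858), where its size was nearly the same. It was also lost without stiff 12 h round 2 (-0.27, adjusted p = 0.177) and without soft 12 h round 3 (-0.20, adjusted p = 0.449). At 24 h it had 339, 311 and 300.0 CPM on soft and 329, 323 and 317 CPM on stiff. At 36 h the values were 306, 319 and 356 CPM on soft and 321, 310 and 326 CPM on stiff, with both groups overlapping at these times.

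The member whose gain from 0 to 12 h differed between substrates was ENSRNOG00000007415. Its soft and stiff libraries did not overlap at 0 h, where the difference did not pass edgeR's test, and they overlapped at 12 h. At 0 h it had 0.59, 0.64 and 0.24 CPM on soft and 0.81, 4.01 and 1.91 CPM on stiff, from 1 to 4 reads per soft library and 5 to 26 per stiff library. At 12 h it had 15.5 and 22.1 CPM on soft and 20.6, 18.3 and 18.1 CPM on stiff, with overlap. The gain was smaller on stiff, with a log2 difference of -2.11 (SE 0.573, adjusted p = 0.0467, edgeR). In 9 of 11 fits that left out 1 library at 0 or 12 h the call was lost, with adjusted p between 0.00484 and 0.302 over all 11. Without stiff 0 h round 2 the difference was -1.33. Later levels lay close together, at 21.8, 26.9 and 27.1 CPM on soft and 23.3, 28.7 and 27.3 CPM on stiff at 24 h. At 36 h it had 14.8, 18.7 and 16.3 CPM on soft and 17.8, 20.4 and 16.7 CPM on stiff.

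The genes that rose by 12 h but did not keep a plateau were set beside the 110. Of the 50 that gained 1 or more again by 36 h, 5 differed between substrates at 12 h (10%, against 6.6% of all tested genes), 4 of them higher on stiff (8%, against 5.36%). At 36 h 1 of the 50 differed (2%, against 0.0675%). Their median log2 fold change, stiff minus soft, was 0.08 at 36 h. Of the 9 that lost 1 or more by 36 h, 0 differed at 12 h or 36 h by edgeR's test at an adjusted p under 0.05, and their median at 36 h was 0.16. The 110 genes had 0.20. The differences between these 3 groups of genes were not tested, so the higher level on stiff at 36 h is not shown to be particular to the plateau genes.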

How the data were processed

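The authors deposited whole-number read counts per Ensembl gene for 23 libraries of 3'-end RNA sequencing (QuantSeq FWD, per the labels' protocols). FastQC, HISAT2 2.1.0, HTSeq and the rn6 build are named in the submitters' processing notes, and no parameters are given in the sources used here. Reads near the 3' end are counted, so levels depend on how well gene ends are annotated, and no correction for gene length was made.

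From the counts, CPM and the selection rule were computed over all 32883 genes. The test was edgeR 4.0.16's quasi-likelihood F test (R 4.3.3) with TMM scaling and filterByExpr (minimum count 10, minimum total 15), in 1 fit of 8 group means; 11857 genes were tested, all 110 members among them, and p-values were adjusted over all 11857 (Benjamini-Hochberg, 0.05). The procedure was tested on simulated data. Substrates were compared within each time and, as differences of differences, between times, in the fit with no term for the round.

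The members, lists and tests were chosen with earlier results of these data known. Alternatives were RLE scaling, other filters on low counts, a replicate block, DESeq2 1.42.0, leaving out each library, and other added values and thresholds in the rule. Thinning all libraries to the smallest total, the median at 36 h and the 24 to 36 h step were added after seeing the data. The rule for named genes took the members with the largest gains, the most abundant ones, those called in a tested contrast and those at the limits of the rule; with no symbols, 4 identifiers are printed, 2 higher and 2 lower in a contrast or in time, and other genes are given by rank. Gene lists and markers prepared by symbol were not used, since no identifier could be paired with a symbol.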

Additional observations from a re-analysis of the deposited data

Results flagged for a closer look

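For a few of the 110 genes the stiff minus soft difference varied between times by a test of the difference itself. In the main fit such genes were a share below or near that of all tested genes. The gain from 0 to 12 h differed between substrates for 1 gene, ENSRNOG00000007415, by a log2 difference of -2.11, stiff minus soft, in which all but 2 of 11 fits without 1 library lost the call. The step from 12 to 24 h differed for 3 genes, and for ENSRNOG00000016750 the log2 difference was -1.29. The stiff minus soft difference varied over the 4 times for 4 genes. In this fit the shares of the 110 genes were 0.909%, 2.73% and 3.64%, against 1.87%, 4.44% and 3.31% of all tested genes. For the difference over times the share was above that of all tested genes with DESeq2 (7.27% against 4.78%) and without a filter on low counts (12.7% against 3.68%).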

How the results depend on the processing

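The number of genes that meet the rule stayed within 1.5 times the 110 under all 31 alternatives, from 107 to 118 when 1 library was left out. Of the 112 soft-chosen genes, 107 to 108 were called on stiff when 1 stiff library was left out, against 9.02 to 10.5% of all tested genes. Of the 117 stiff-chosen genes, 112 to 113 were called on soft when 1 soft 0 h library was left out, against 12.1 to 12.7%. Counts of members called stiff against soft were small and moved with the settings. Without a filter on low counts they were 1 at 0 h, 8 at 12 h and 10 at 36 h, then 2 for the 0 to 12 h gain, 6 for the 12 to 24 h step, 1 for the 24 to 36 h step and 14 for the difference over times. The shares of all genes tested in that setting were 0.0655%, 5.15%, 0.53%, 1.74%, 3.68%, 0.0764% and 3.68% in the same order, and those of the members 0.909%, 7.27%, 9.09%, 1.82%, 5.45%, 0.909% and 12.7%. This setting tests more genes, and the cause was not tested. The single call at 36 h became 2 with RLE scaling (1.82%, against 0.0759% of all tested genes) and 2 with a filter at 5 CPM (1.90% against 0.0880%). It became 2 with DESeq2 (1.82% against 0.236%) and 3 after thinning (2.75% against 0.119%). In each fit that left out 1 library it became 0, against 0.00844 to 0.110%. DESeq2 called 2 genes for the 0 to 12 h gain (1.82% against 2.38%) and 8 for the difference over times (7.27% against 4.78%). Over all tested genes the count at 36 h was 8, 28 with DESeq2 and 97 without a filter. A fit without a soft 12 h library leaves 1 library in that group, so its counts are not given. Leaving out 1 library other than a soft 12 h one gave 0 to 1 genes for the 0 to 12 h gain. For the 12 to 24 h step it gave 2 to 5 (5 without soft 24 h round 3). For the difference over times it gave 2 to 5 (2 without stiff 36 h round 3). The shares of all tested genes were 1.20 to 2.35%, 3.07 to 5.03% and 2.26 to 3.66% in this order. Those of the members were 0 to 0.909%, 1.82 to 4.55% and 1.82 to 4.55%. The log2 fold change of ENSRNOG00000001128 at 12 h, never called, turned from -0.04 to 0.054 without soft 12 h round 1 and to 0.073 without stiff 12 h round 3, with a range of -0.12 to 0.073 when 1 library was left out. The median at 36 h stayed above 0 under all 12 alternatives run on it.

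Same-numbered soft and stiff libraries correlated in their deviations by over 0.1 in 4 of 11 pairs (-0.03 to 0.15), so the main fit had no term for the round. Of the 11 soft libraries, 9 correlated best with their own round, so the rounds may share more than a number. With a replicate block, 4 members were called at 36 h (3.64%, against 0.405% of all tested genes), 5 for the 12 to 24 h step (4.55% against 5.74%) and 9 for the difference over times (8.18% against 4.80%); the other counts stayed within 1.5 times. Depth limits the genes under 1 CPM at 0 h, whose gain rests on few reads.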
